A study of Mus musculus with 44 samples.

Results

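Actn2 and Myh8, genes of the contractile apparatus of striated muscle, were followed through mouse germ cell development because they gave signal in germ cells of the fetal testis. Every probe of the deposited intensity table whose platform annotation names either gene was taken, which gave 2 of 16590 annotated genes and 3 of 25697 probes: 1 for Actn2 (ILMN_2797061) and 2 for Myh8 (the brighter ILMN_1223735 and the dimmer ILMN_2978038). All 3 probes had signal above background on some arrays, and both genes stayed among the 10935 genes kept after a filter on dim probes. Both genes were chosen by their levels on the fetal male arrays of this same series, so their levels and differences are given as a description, with no test.

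RNA came from primordial germ cells (PGC), the embryonic precursors of eggs and sperm, that had been collected by FACS, and it was amplified and hybridised to Illumina MouseRef-8 v2 beadchips. The 44 arrays formed 23 groups. There were 2 arrays of PGC at embryonic day 11.5 (E11.5), whose sex is undefined, and, for every day between E12.5 and E18.5, 2 arrays of female and 2 of male PGC. After birth only males were sampled, under the same PGC label, with 1 array at 14 days post partum (dpp) and 2 at each of 8, 10, 12, 16, 18 and 20 dpp. The last array held male OG2 embryonic stem cells (ESC), +/+ for Oct4-GFP. No strain, genotype or age other than the day is given for the PGC, and the sorting gate is not described. Duplicates may be biological or technical by the protocol and no animals are named, so p-values measure only the spread between these samples.

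In the sarcomere, the contractile unit of striated muscle, thick filaments of myosin pull on thin filaments of actin that are anchored at the Z disc. Actn2 encodes alpha-actinin-2, which crosslinks actin at the Z disc of cardiac and skeletal muscle, and Myh8 encodes the perinatal myosin heavy chain, a motor protein of the thick filament that skeletal muscle uses around birth. Germ cells of the fetal testis stop dividing in mid-gestation, are then known as prospermatogonia, and resume division after birth, whereas germ cells of the fetal ovary enter meiosis.

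Actn2 lies on the minus strand at chr13:12269426-12340732 and Myh8 on the plus strand at chr11:67277124-67308634 of GRCm38.p6. Myh8 is flanked in RefSeq by the skeletal myosin genes Myh4 (chr11:67237812-67260447) and Myh13 (chr11:67327103-67371587). The 250 bases before each gene's start are shown because both genes were high in fetal male germ cells but at different ages. Capitals mark E-boxes (CANNTG, which basic helix-loop-helix factors can bind) and a match to the MEF2 motif, sequences are from RefSeq, and each runs 5′ to 3′ on the gene's own strand.
Actn2, chr13:12340733-12340982, minus strand: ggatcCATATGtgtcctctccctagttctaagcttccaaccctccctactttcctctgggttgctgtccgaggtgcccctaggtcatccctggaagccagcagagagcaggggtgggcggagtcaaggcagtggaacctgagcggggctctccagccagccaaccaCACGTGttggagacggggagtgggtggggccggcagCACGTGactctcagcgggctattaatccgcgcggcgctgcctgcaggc
Myh8, chr11:67276874-67277123, plus strand: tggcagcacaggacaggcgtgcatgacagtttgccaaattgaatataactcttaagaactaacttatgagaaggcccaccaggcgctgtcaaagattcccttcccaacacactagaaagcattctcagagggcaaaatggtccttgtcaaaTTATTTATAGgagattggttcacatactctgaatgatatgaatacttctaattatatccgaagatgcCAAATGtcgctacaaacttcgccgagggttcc
The Actn2 window held 3 E-boxes, 2 of them CACGTG at 84 and 48 bases before the start, and the Myh8 window held 1, CAAATG at 32 bases. At least 1 E-box was found in 66.2% of 32851 promoter windows of that length. The MEF2 motif, searched on both strands, was found once for Myh8, 99 bases before the start, and overlapped a TATAAA on the opposite strand. MEF2 matches occurred in 2.92% of all windows and TATAAA in 12.4%, and neither was in the Actn2 window. The windows of Nrap, Unc45b, Tpm2 and Mef2c, muscle genes described below with Myh8, were also searched and held 0 MEF2 matches. The windows also differed in base composition, with 63.2% G or C and 12 CG pairs for Actn2 against 42.4% and 6 for Myh8. These are letter matches and no binding was measured.

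Levels are background-corrected, quantile-normalised log2 intensities, and a probe counted as detected on an array where its deposited detection p-value was under 0.01. Between 24.9% and 49.3% of probes were detected per array, with the fewest on both E16.5 female arrays (25.8% and 24.9%). The upper quartile of raw intensity was 79.9 to 170 on fetal arrays of known sex and 296 to 606 after birth. As a check of the labels, 13 genes of fetal male germ cells summed to 15978 to 17349 (normalised intensity) in males at E17.5 and E18.5, against 7142 to 9861 in females of those days, and the sums did not overlap. Dnmt3l and Piwil4, known from such cells, were detected on all 4 of these male arrays, at 12.65 to 12.99 and 9.18 to 10.24. Both are among the 13 genes, so they are no separate check. On the linear scale of the sums Dnmt3l makes up a large part of the male ones. Of the 13 genes 10 were detected on each of these male arrays and 6 to 7 on each of these female arrays. Smooth muscle markers on both E11.5 arrays differed (summed level 2518 and 429), and erythroid genes differed more (55942 with 6 of 6 genes detected, and 1637 with 4). Actn2 was at 7.92 on the first of them and 8.92 on the second.

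Actn2 was already high in the youngest male germ cells and lower by the end of gestation. Male arrays read 10.14 and 10.07 at E12.5, 10.69 and 10.02 at E13.5, and 10.86 and 10.31 at E14.5. They read 10.20 and 9.98 at E15.5, 9.09 and 8.93 at E16.5, and 9.46 and 9.37 at E17.5. The 8 arrays from E12.5 to E15.5 were all above those of later fetal days, and among these 4 days each group overlapped the next in the order of levels. At E18.5 the male arrays read 6.24 and 6.52, a mean 3.03 below E17.5, with no overlap. Raw intensities showed the same drop, from 413 and 460 at E17.5 to 111 and 126 at E18.5, after 2444 and 970 at E13.5. Actn2 was detected on all 14 fetal male arrays.

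Before sexual differentiation of the germ cells Actn2 was detected too, at 7.92 and 8.92 on the E11.5 arrays, the first of which had the high erythroid sum, while the ESC array had 4.75 and no detection. In females it was 8.14 and 8.30 at E12.5, 6.82 and 7.03 at E13.5, and 5.85 and 5.94 at E14.5. It was not detected on either female array at E15.5 (5.25 and 5.31), E17.5 (4.70 and 5.17) or E18.5 (4.40 and 4.37). At E16.5 the female arrays disagreed, with 4.37 and no detection on the first and 6.55 with detection on the second, and these were the dimmest arrays of the series. The female arrays thus overlapped those of E11.5 at E12.5 and were at background 3 days later.

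After birth Actn2 was detected on all 13 arrays within a narrow band. The arrays read 7.11 and 6.96 at 8 dpp, 7.14 and 6.98 at 10 dpp, 6.64 and 6.64 at 12 dpp, and 6.80 at 14 dpp. They read 7.02 and 6.93 at 16 dpp, 6.84 and 6.94 at 18 dpp, and 6.72 and 6.75 at 20 dpp. All 13 were above both E18.5 male arrays and below the male arrays of E12.5 to E17.5. The mean of 8 dpp was 0.65 above that of E18.5, a difference between arrays of very different brightness.

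Myh8 had another course, at background in early germ cells and highest in late fetal males. The brighter probe was not detected on any of the 6 male arrays from E12.5 to E14.5, at 4.31 and 4.39, 4.42 and 4.31, and 4.68 and 4.51. It was detected on both arrays of each later fetal day, at 7.12 and 7.07 at E15.5, 9.26 and 8.87 at E16.5, 9.62 and 9.56 at E17.5, and 9.96 and 9.68 at E18.5. These 4 days were the highest of the 23 groups and did not overlap each other, each day being above the day before. In raw intensity the steps were from 93.8 and 77.8 at E14.5 to 136 and 114 at E15.5 and to 537 and 507 at E18.5. Since no array of E14.5 measured it, the E15.5 mean was at least 3.82-fold above E14.5.

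In females, on the E11.5 arrays and in ESC the brighter Myh8 probe stayed near background, from 4.37 to 5.73 in females, 4.98 and 4.45 at E11.5 and 4.55 in ESC. Of these 17 arrays only the second of E15.5 females (5.73, detection p of 0.00501) was detected. After birth the 13 arrays read 4.74 to 5.19 and 6 of them were detected, so the level sat at the edge of detection. All 8 male arrays from E15.5 to E18.5 lay above the 13 arrays after birth, whereas arrays of females and of E11.5 overlapped them. The E18.5 males were at least 28.4-fold above 8 dpp, where neither array was detected (4.97 and 4.74).

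The dimmer Myh8 probe, a separate feature of the array, was detected on the same fetal male days. Male arrays read 5.19 and 5.53 at E15.5, 7.44 and 7.47 at E16.5, 8.01 and 7.32 at E17.5, and 7.54 and 7.80 at E18.5, each with detection. None of the other 36 arrays detected it. From E16.5 to E18.5 its days overlapped, so it does not show the daily steps of the brighter probe. Over the 23 group means both probes had a Pearson correlation of 0.97, as a description of probes read on the same arrays.

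**Figure D1:**
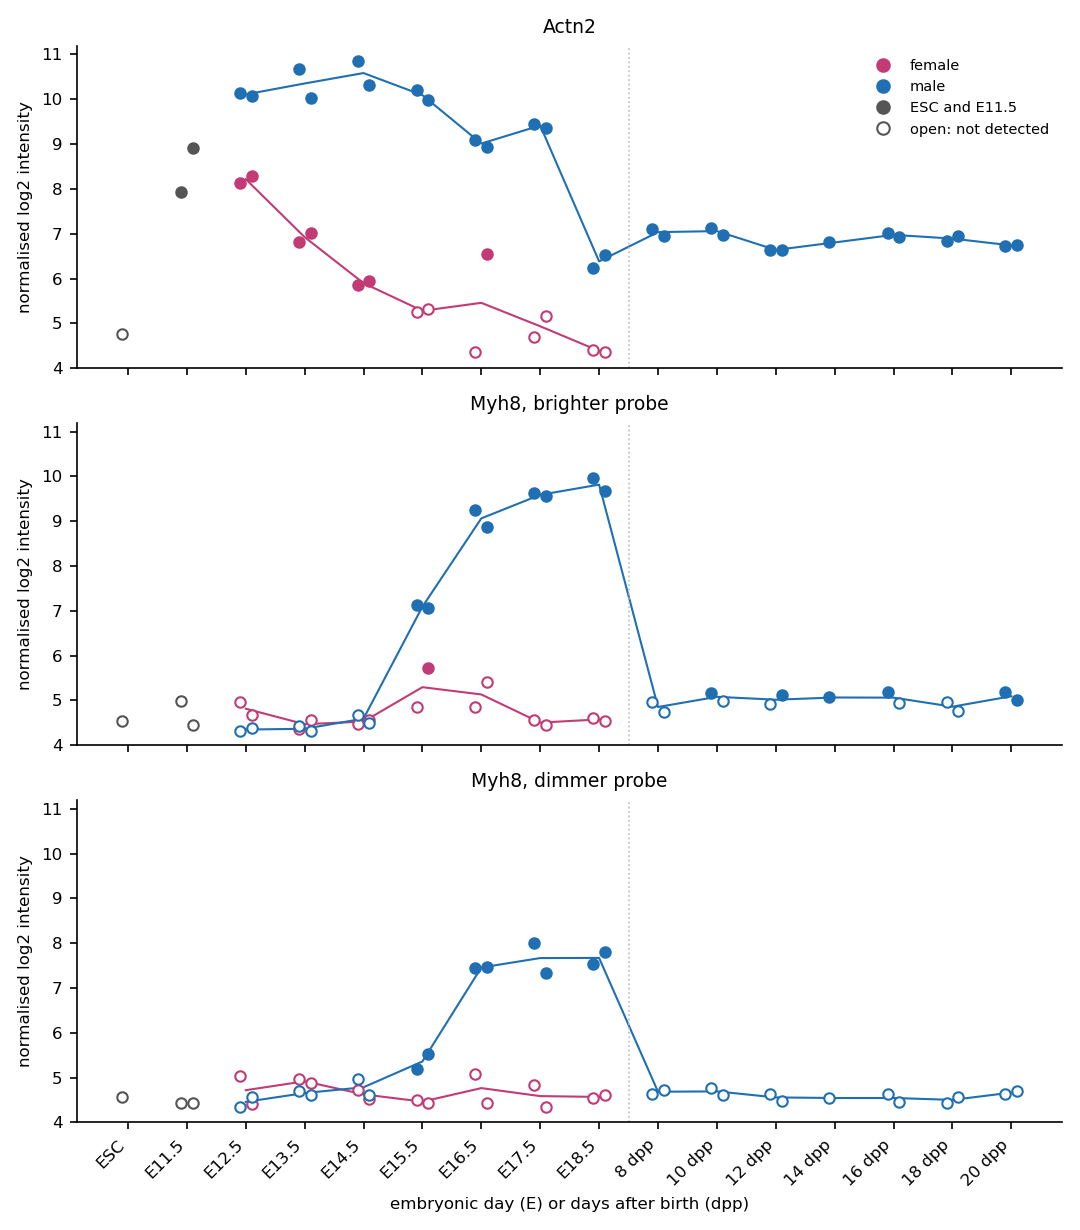
Normalised log2 intensity (y axis) of the Actn2 probe and both Myh8 probes on each of the 44 arrays (points) against embryonic day or days after birth (x axis), with open points where the probe was not detected, lines through group means, and a dotted line at birth. Actn2 is highest in males at E12.5 to E15.5 and lowest among fetal males at E18.5, when Myh8 is at its highest.

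Within the 7 fetal male groups the means of Actn2 and of the brighter Myh8 probe correlated at -0.75, and over all 23 groups at 0.23, a description over points that share arrays and normalisation. Put side by side for the mean of E17.5 and E18.5 against that of E14.5 and E15.5, Actn2 was 2.44 lower on the log2 scale, 5.43-fold. The brighter Myh8 probe was at least 11.9-fold higher, since only 2 of the 4 arrays of E14.5 and E15.5 detected it, and the dimmer one at least 5.31-fold. For Actn2 most of that difference stood at E18.5: with E17.5 alone it was 0.92 lower and with E18.5 alone 3.96 lower. Between E12.5 to E13.5 and E14.5 to E15.5 the Actn2 arrays overlapped, with a difference of 0.11 that turned to -0.21 under median scaling. Over the same days Myh8 was at least 1.42-fold higher, and both E15.5 arrays carried that. Fewer cells with a transcript and less of it per cell cannot be told apart in such bulk samples.

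The sexes diverged earlier for Actn2 than for Myh8. Male minus female means of Actn2 were 1.89 at E12.5, 3.43 at E13.5 and 4.69 at E14.5 on the log2 scale, and no male array overlapped a female one on these days. At E15.5 and E17.5, where females were not detected, males were at least 22.2-fold and 16.8-fold higher, and at E18.5 at least 1.89-fold. Myh8 did not differ in a measurable way up to E14.5, since neither sex was detected, and at E15.5, where 1 of 2 female arrays detected the brighter probe, males were at least 2.70-fold higher. The bound for the brighter probe was at least 6.16-fold at E16.5, 18.95-fold at E17.5 and 20.5-fold at E18.5, and all male arrays were above all female arrays on these days. For the dimmer probe it was at least 2.02-fold, 5.003-fold and 4.62-fold. From E12.5 to E13.5 through to E17.5 to E18.5 the Actn2 mean went from 10.23 to 7.90 in males and from 7.57 to below detection in females. With undetected arrays at their lowest detected level the difference of these changes was -0.16, and with the levels as read 0.58, so its sign was not settled. The brighter Myh8 probe went from no detection to 9.70 in males and was undetected at both stages in females.

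To place both genes among their partners, 141 other genes of muscle were listed: thick filament, thin filament, Z disc, calcium handling and energy supply, myogenic regulators, and nonmuscle or smooth muscle paralogs. Of these, 122 had an annotated probe and 81 passed the filter. They were tested with limma over all 10935 genes, with Benjamini-Hochberg adjustment, and called at an adjusted p under 0.05 and at least 2-fold. Muscle genes that passed only through late fetal male arrays had to be higher there, so the counts below describe the lists beside the share of all genes and are not support for them.

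Between E14.5 to E15.5 and E17.5 to E18.5, the interval over which Myh8 was higher and Actn2 lower, 18 of the 81 muscle genes rose and 1 fell, or 23.5%, where 12.7% of all genes were called (8.61% rose and 4.11% fell). Without background correction 6 rose and 1 fell (8.64%, against 2.82% of all genes), with an offset of 50 it was 10 and 1 (13.6% against 5.22%), and with the authors' deposited values 34 and 4 (46.9% against 26.8%). In the reported setting the median change of the 81 genes was 0.37, against -0.01 over all genes. Thick filament genes stood beside Myh8, with 6 of 15 rising. Where some arrays of E14.5 and E15.5 did not detect a gene, its rise is a bound with those arrays at their lowest detected level. Myl4, a myosin light chain of embryonic muscle, rose at least 5.2-fold (3 of 4 arrays detected, adjusted p = 3.7e-09 in limma), and Unc45b, the chaperone that folds muscle myosin, at least 4.87-fold (2 of 4). At the Z disc, where Actn2 acts, 4 of 15 rose. Actn3, its fast-muscle paralog, rose by 1.04 ± 0.18 (SE) on the log2 scale. Fhl1, a LIM protein of muscle, fell by 1.47 with an SE of 0.13 and was lower like Actn2. Of the thin filament genes 2 of 12 rose, Nrap, which anchors actin during assembly of myofibrils (at least 4.90-fold, 2 of 4 arrays detected), and the tropomyosin Tpm2 (at least 3.53-fold, 1 of 4). Eno3, the muscle enolase, rose by 2.22 ± 0.17 among 5 of 18 genes for calcium handling and energy supply, and Mef2c, a transcription factor of muscle differentiation, at least 4.61-fold (3 of 4) as the single one of 11 regulators. None of the 10 nonmuscle and smooth muscle paralogs was called in limma, with 4 at an unadjusted p under 0.05.

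Probes of these genes did not all agree in the difference of levels as read, undetected arrays included. Of the other 2 Nrap probes, 1 was higher by 1.53 and 1 was detected on no array. Of the other 2 Actn3 probes, 1 was higher by 0.87 and 1 lower by 0.39, and of the other 2 Mef2c probes the differences were 2.06 and 0.22. The second detected Unc45b probe was higher by 2.91. Another Tpm2 probe, detected on 1 array, was higher by 0.22.

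Over the earlier interval, E12.5 to E13.5 against E14.5 to E15.5, in which Actn2 stayed level and Myh8 first appeared, 9 muscle genes rose and 6 fell, or 18.5% against 17.6% of all genes (9.43% rose and 8.16% fell). That share was close to the background, and with median scaling 6 rose and 7 fell. Actn3 rose at least 7.49-fold (3 of 4 early arrays detected, adjusted p = 2.2e-13 in limma) and was at 8.31 and 8.34 on the E14.5 male arrays, where Myh8 was undetected. Tnnc2, the calcium sensor of fast muscle, rose at least 3.72-fold, and Fhl1 rose by 1.81 ± 0.13. Ryr1, the calcium release channel of skeletal muscle, rose at least 1.80-fold, Myh6, the atrial myosin heavy chain, at least 1.76-fold, and Unc45b at least 1.52-fold. Among those that fell were Msc, a repressor of myogenic factors (at least 6.05-fold lower, 1 of 4 later arrays detected), Pdlim3, a Z disc partner of alpha-actinin-2 (-1.76 ± 0.16), Tpm1 (-1.34 ± 0.24) and the nonmuscle alpha-actinin Actn4 (-1.19 ± 0.13). Actg1, a cytoplasmic actin, fell at least 1.69-fold and the light chain Myl12a changed by -1.05 ± 0.22.

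**Figure D2:**
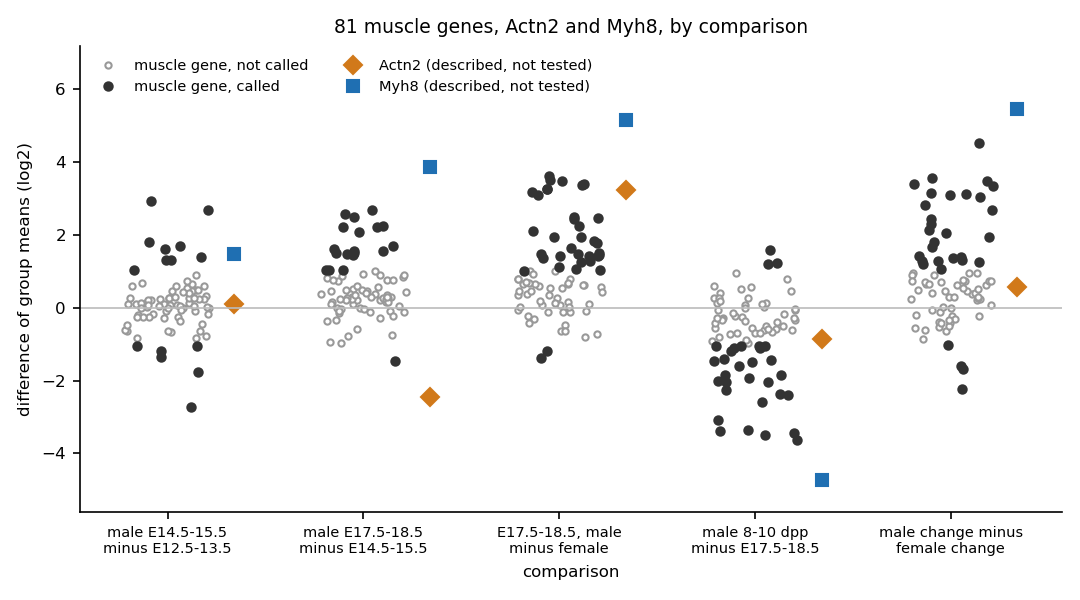
Difference of group means on the log2 scale as read, undetected arrays included (y axis) in 5 comparisons (x axis) for each of 81 muscle genes (circles, filled where called in limma) and for Actn2 (diamonds) and Myh8 (squares), which were not tested. In the comparison of E17.5 to E18.5 with E14.5 to E15.5 in males, Myh8 lies at 3.86, above every listed gene, and Actn2 at -2.44, below every listed gene.

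At E17.5 and E18.5 neither gene was detected in females, and males were at least 5.64-fold higher for Actn2 and at least 19.7-fold for the brighter Myh8 probe. Of the 81 muscle genes 33 were higher in males and 2 lower, or 43.2%, where 35.9% of all genes were called (19.3% higher and 16.6% lower). The most different were Chrnb1, a subunit of the muscle acetylcholine receptor (at least 7.87-fold, adjusted p = 2.0e-12 in limma), Actn3 (3.50 ± 0.18), Tnnc2 (at least 6.36-fold), Myh6 (at least 5.48-fold), Mef2c (at least 7.49-fold) and Bag3, a cochaperone of the Z disc (3.26 ± 0.17). The 2 that were lower in males were the nonmuscle light chain Myl12b (-1.38 ± 0.12) and the transcription factor Mef2a (-1.19 ± 0.21). By role, 6 of 15 thick filament, 7 of 12 thin filament and 7 of 15 Z disc genes were higher in males, along with 8 of 18 for calcium and energy.

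Between E17.5 to E18.5 and 8 to 10 dpp in males, the brighter Myh8 probe was at least 25.3-fold lower, with 1 of 4 later arrays detected, and Actn2 was 0.85 lower on the log2 scale, but Actn2 arrays overlapped and its difference was 0.97 under median scaling and 0.66 against E18.5 alone. Of the muscle genes 28 fell and 3 rose, or 38.3%, where 30.5% of all genes were called (15.7% fell and 14.8% rose). Median scaling, which shifted the median of all genes by 1.10 in this comparison, gave 23 that fell and 15 that rose, or 46.9% against 60.3% of all genes, so that the muscle share was then below the background. Cyclic loess, with a shift of -0.16, gave 27 and 2 (35.8% against 30%). The deepest falls included genes that had risen in fetal males: Unc45b fell at least 10.7-fold (adjusted p = 1.1e-15 in limma), Tnnc2 at least 8.28-fold, Nrap at least 6.86-fold, and Mef2c at least 9.61-fold (2 of 4 detected), and Actn3 fell by 3.39 with an SE of 0.18. Tnnt1, the troponin T of slow muscle, fell by 3.44 (SE 0.14) without having been called between fetal days. Rises were those of Myl12b (1.58 ± 0.12), Jph1, a junction protein of the calcium release unit (1.24 ± 0.12), and Tpm1 (1.19 ± 0.24).

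The change over fetal days differed between males and females in the interaction test for 31 of the 81 muscle genes, 27 with the more positive change in males and 4 in females, or 38.3%, where 36.9% of all genes were called (20% and 16.9%). That share was near the background. Myh6 went from no detection to 7.86 in males and was undetected at both stages in females (adjusted p = 2.4e-12 in limma). Bag3 differed by 3.14 ± 0.24, with means of 9.34 and then 6.46 in females and of 9.47 and then 9.73 in males.

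Counted by detection rather than by change, the muscle lists without the paralogs (112 genes with a probe) were detected in greater number as Myh8 appeared. In males 14 were detected on both arrays at E12.5, 16 at E13.5, 17 at E14.5, 30 at E15.5, 46 at E16.5, 49 at E17.5 and 47 at E18.5, and 22 at 8 dpp. In females the number was 5 to 15 from E12.5 to E18.5. The share of all 16590 annotated genes detected on both male arrays went from 36.8% at E12.5 to 49.6% at E18.5 and was 45.2% at 8 dpp, while that of muscle genes went from 12.5% to 42% and was 19.6% at 8 dpp. Actn2 was detected at each of these male ages, and Myh8 first at E15.5.

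**Figure D3:**
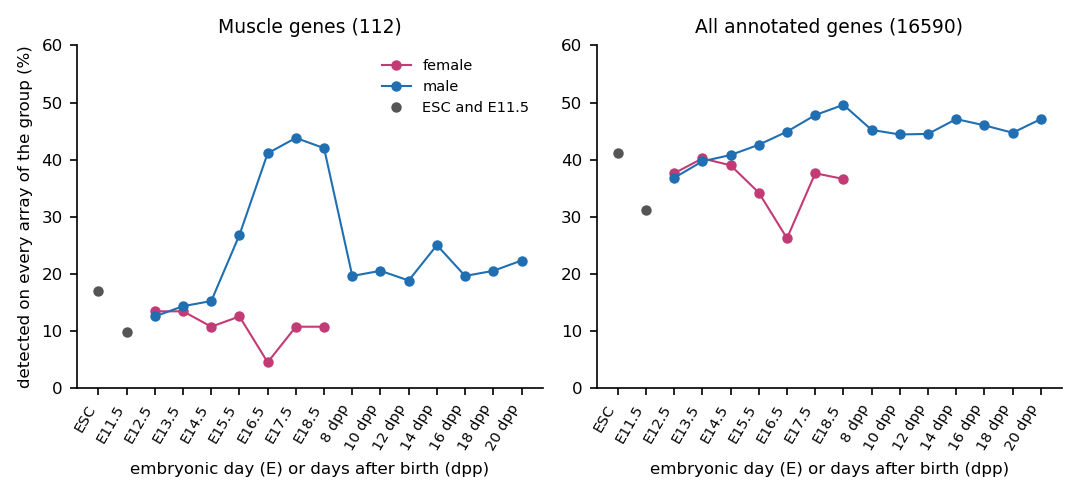
Percentage of 112 muscle genes (left) and of 16590 annotated genes (right) detected on every array of a group (y axis) against embryonic day or days after birth (x axis), for females, males, and the ESC and E11.5 groups. Muscle genes in males go from 15.2% at E14.5 to 43.8% at E17.5 and back to 19.6% at 8 dpp, and in females stay at or below 13.4%.

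**Figure D4:**
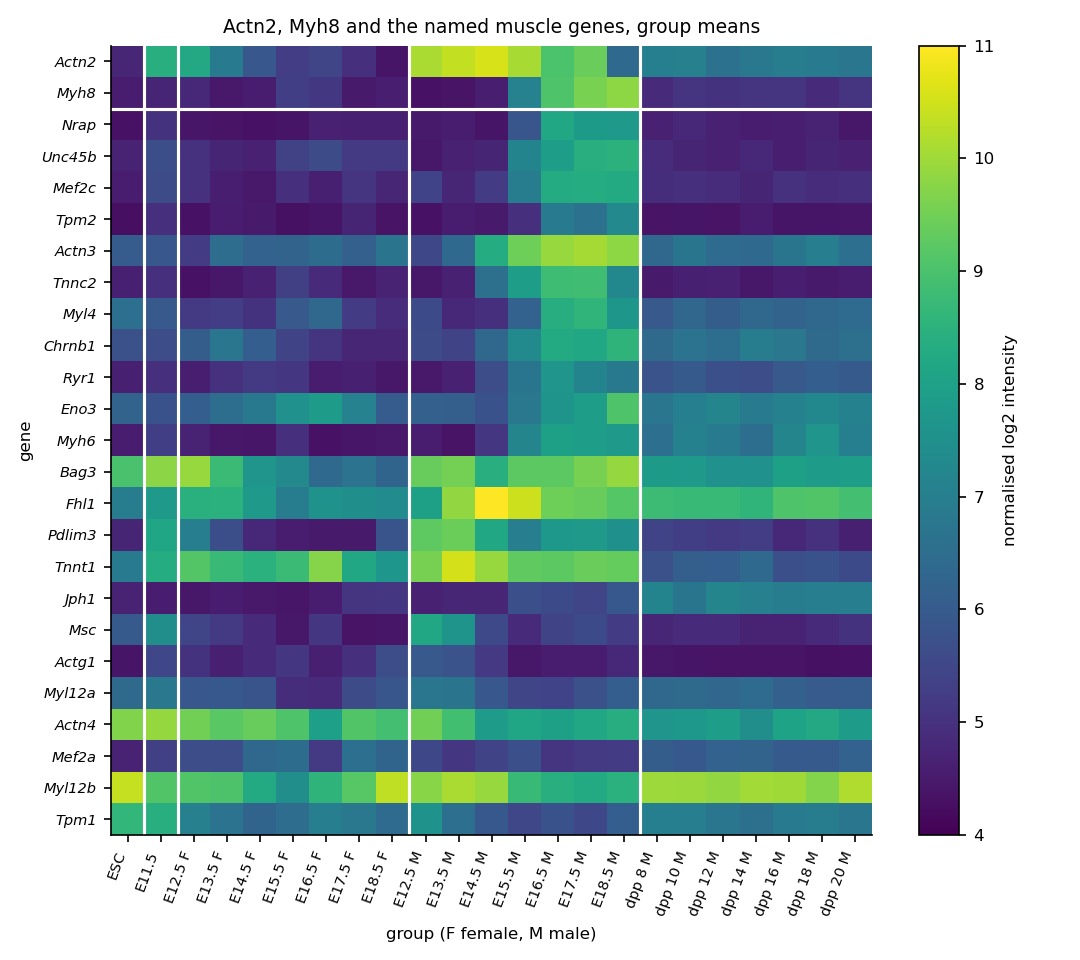
Group means of the normalised log2 intensity (colour) of Actn2, Myh8 and the named muscle genes (rows, ordered by likeness to Myh8) over the 23 groups (columns). Nrap, Unc45b, Mef2c and Tpm2 share the late fetal male block with Myh8, while Actn2 is highest in males from E12.5 to E15.5.

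Probes of different genes differ in efficiency, so levels of paralogs are given side by side and not compared. Myh1, which lies in the same cluster on chromosome 11 as Myh8, was detected on 3 of the 4 male arrays at E17.5 and E18.5, at 4.72 to 5.42. Myh4, which flanks Myh8, was detected on no array of the series, so nothing here shows that its probe works. Myh2, Myh3 and Myh13, also of this cluster, had no annotated probe. Probe sequences were not available, so cross-hybridisation of the Myh8 probes with any of these myosin genes, Myh1 and Myh4 included, was not tested. The cardiac genes Myh6 and Myh7 were detected on both male arrays at E15.5, at 7.16 and 7.24 and at 5.34 and 5.41. The nonmuscle myosins Myh9 (9.36 to 9.87) and Myh10 (5.74 to 6.97) were detected on all 4 late male arrays. Nonmuscle alpha-actinins Actn1 (9.63 and 10.13) and Actn4 (9.45 and 9.57) were already present with Actn2 at E12.5, and Actn3 was at 5.37 and 5.69 there.

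A further set of muscle fibre genes and myogenic regulators was looked up after the values had been seen. Acta1, the skeletal actin, Tnnt3, Casq1, Myot, and the regulators Myod1, Myf5, Pax3 and Pax7 were detected on none of the 14 fetal male arrays. They were detected on none of the 44 arrays either, so nothing here shows that these probes work. Others were at the edge of detection on the 4 late male arrays that had Myh8: Ckm on 3 arrays at 4.90 to 5.33, Myog on 3 at 4.76 to 5.43, Mb on 4 at 5.18 to 5.73, and the cardiac actin Actc1 on 4 at 5.01 to 5.95. Some muscle genes outside this set were detected on all 4 of these arrays, with means of 9.92 for Actn3, 8.44 for Unc45b, 8.07 for Tnnc2 and 7.86 for Myh6. These are bright examples and do not stand for the rest. Others outside the set, such as Myom2, Ryr2 and Pygm, were detected on none of the 44 arrays. Of the 112 muscle genes with a probe, paralogs aside, 47 were detected on both E18.5 male arrays.

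Many genes had 23 group means like those of Myh8 and few had means like those of Actn2. Of 71 muscle genes tested, paralogs aside, 25 (35.2%) correlated with Myh8 at over 0.8, as did 653 of all 10933 other genes (5.97%). For Actn2 the numbers were 2 (2.82%), Pdlim3 and the calcium pump Atp2a1, and 41 (0.375%). The nearest to Myh8 were Nccrp1 (Pearson correlation 0.98), Avil, an actin-binding protein of the villin family (0.98), Chat, which makes acetylcholine (0.98), Myo1a, a myosin of the brush border (0.98), Arhgef6 (0.97), Gngt2 (0.97), Nrap (0.97), Faim2 (0.97), Rem2 (0.97) and Col17a1 (0.97). Of these 10 only Nrap was on the muscle lists, and with Spearman correlation 0 of the 10 stayed among the nearest. The nearest to Actn2 were Igsf21 (0.94), Bckdha, of branched amino acid breakdown (0.93), Dnd1, an RNA-binding protein of germ cells (0.91), Gramd3 (0.91), Jund (0.90), Khdc1c (0.89), Ruvbl1 (0.89), Gtf2f2 (0.87), Rsph9 (0.87) and Atp5g1 (0.87), none of them on the muscle lists. These correlations describe groups that share arrays and normalisation. Genes that passed the filter only through late fetal male arrays had to be high where Myh8 was. Nrap and Tpm2, for example, were detected on 8 and 7 arrays, all of them fetal male. The shares for Myh8 are therefore a description and no support for a link with muscle genes.

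Nccrp1, outside the muscle lists, had a course much like that of Myh8. Its mean was 4.43 in E14.5 males, 6.23 at E15.5, 7.51 at E16.5, 7.40 at E17.5 and 7.41 at E18.5, and 4.54 at 8 dpp. Unlike the brighter Myh8 probe, it did not rise after E16.5. Igsf21, nearest to Actn2, had means of 8.58 in E12.5 males, 7.44 at E18.5 and 4.39 in E18.5 females. It lacked the Actn2 drop between E17.5 (7.75) and E18.5.

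Markers of other cell types moved over the days on which Myh8 and its partners were higher. The summed level of 10 smooth muscle and peritubular myoid genes was 330 to 362 in males at E12.5 to E13.5, 274 to 500 at E14.5 to E15.5, 1064 to 1223 at E17.5 to E18.5 and 525 to 733 at 8 to 10 dpp, and in females at E17.5 to E18.5 it was 253 to 294. Of the 11 genes listed, 4 also stand on the muscle lists, among them Tpm2 and Des. Its Acta2 (8.52 to 8.77) and Actg2 (7.97 to 8.37) were detected on all 4 late male arrays, and 6 or 7 of the 10 genes on each of them. Tagln, Cnn1 and Lmod1 were detected on none of these arrays, but Tagln and Lmod1 were also detected on 0 and Cnn1 on 1 of all 44, so nothing here shows that those probes work. Sertoli cell genes (14) summed in males to 936 to 1976 at E12.5 to E13.5 and 646 to 885 at E14.5 to E15.5. In males they then summed to 1203 to 2713 at E17.5 to E18.5 and 1222 to 5637 at 8 to 10 dpp, and in late females to 338 to 410. Of these genes 6 to 10 were detected on each late male array and 0 to 2 on each late female array. Dhh, Cst9, Aard, Wt1 and Clu were detected on all 14 fetal male arrays, and Cyp26b1, Gata4, Nr0b1 and Vnn1 on 0 of them. Amh and Sox9 were detected on 2 of the 4 late male arrays. Mesenchymal genes (9) summed to 320 to 356, 362 to 860, 1528 to 1780 and 483 to 598 at the same 4 stages and to 1069 to 1567 in late females. Of the mesenchymal genes 5 to 6 were detected on each late male array and 2 to 3 on each late female array. Endothelial genes (7) summed to 285 to 609, 199 to 265, 379 to 558 and 167 to 178, and granulosa genes (6) to 193 to 239, 178 to 215, 360 to 550 and 219 to 617. In late females the endothelial sums were 199 to 287 and the granulosa sums 159 to 180. Of the granulosa genes 0 to 1 were detected on each late female array and 4 to 5 on each late male array. That list was thus lower in germ cells of the ovary than of the testis on these days. Erythroid genes (6) summed to 550 to 2099, 583 to 2648, 1249 to 5318 and 234 to 352. Steroidogenic genes (7) stayed within 146 to 252 and macrophage genes (7) within 149 to 188 over these stages. Only 0 to 2 and 0 to 1 of them were detected per array, so these sums lay near background. Star, Hsd3b1, Insl3, Nr5a1, Hsd3b6, Lyz2 and C1qa were detected on 0 of the 44 arrays, so nothing here shows that those probes work. Cyp17a1 was detected on 8 and Cyp11a1 on 5 of the 14 fetal male arrays. The part of these cells in the Myh8 and Actn2 levels was not tested.

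**Figure D5:**
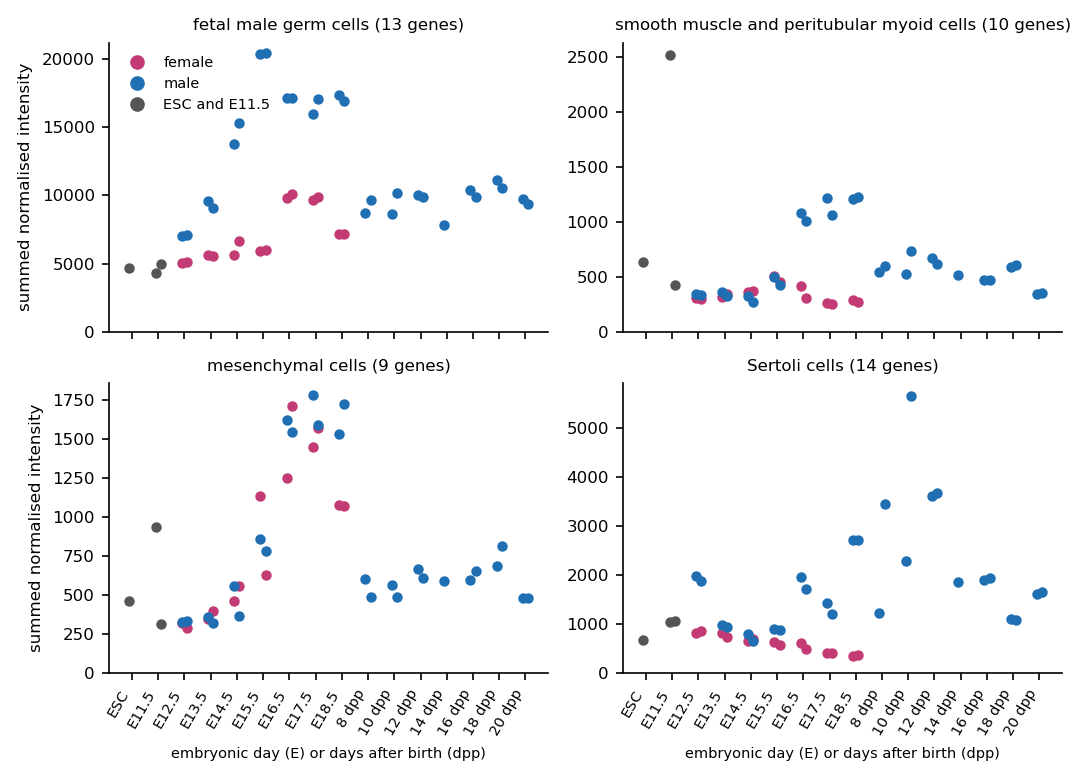
Summed normalised intensity (y axis, linear) of marker genes of fetal male germ cells, smooth muscle and peritubular myoid cells, mesenchymal cells and Sertoli cells on each array (points) against embryonic day or days after birth (x axis). Smooth muscle markers are at 1064 to 1223 in males at E17.5 to E18.5 against 253 to 294 in females, and 1 E11.5 array stands at 2518.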

How the data were processed

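Expression was measured on 44 Illumina beadchips. The authors deposited a table of raw bead intensity values with a detection p-value per probe and array, and a table of log2 values. The submitters' processing notes name BeadStudio 3.2, RMA and lumi, and the steps that link them are not given in the sources used here. The authors' log2 columns hold nearly the same sorted values on every array (largest difference 0.0014, median 3.20) and served as an alternative.

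From the deposited intensities, background was corrected from the detection p-values with an offset of 16 and arrays were quantile-normalised (limma 3.58.1, R 4.3.3). Probes were kept where 2 or more arrays had a detection p below 0.01 (16086), 15127 of them with a symbol, and the brightest probe stood for a gene (10935 genes). Symbols came from the platform annotation, updated through RefSeq GRCm38.p6 (23962 probes by Entrez gene, 9 by accession, 7 kept as annotated, 1719 with none). A model of 23 group means over all 44 arrays gave each contrast, with two-sided moderated tests in limma, adjusted by Benjamini-Hochberg over all genes. Undetected arrays of the dimmer group were set to the lowest detected signal of that array, or their own value if higher, and the fold is then given as "at least". The ESC and 14 dpp groups have 1 array and were assumed to vary like the others.

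The genes, lists and tests were chosen with earlier results of these data known. Named genes are Actn2 and Myh8, the 10 genes with the most like group means for each, up to 6 muscle genes called each way per comparison, the nearest homologues, and detected cell type markers; the muscle fibre genes, and Pdlim3 and Atp2a1 beside Actn2, were added after values were seen. The test was first tested on simulated data. Alternatives were other background corrections and scalings, the authors' values, filters, thresholds, days, a replicate block, variance models, probes on their own and leaving out each array.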

Additional observations from a re-analysis of the deposited data

Results flagged for a closer look

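The change from E12.5 to E13.5 through to E17.5 to E18.5 differed between males and females in the interaction test for the 10 muscle genes below, the largest called in each direction among the 81 (at most 6 each way). In that test 38.3% of the 81 were called, where 36.9% of all genes were called, so the share was near the background. Values are the male change minus the female change on the log2 scale, tested with limma, and include levels of undetected arrays. In brackets after each is the value with such arrays at their lowest detected level. Chrnb1 differed by 4.52 (3.78), with means of 5.51 and then 8.38 in males and of 6.41 and then no detection in females. Unc45b differed by 3.56 (3.01), Myh6 by 3.49 (2.41), Actn3 by 3.41 (3.46) and Tnnc2 by 3.35 (2.63). Of these, Unc45b, Myh6 and Tnnc2 were detected on 0 of 4 early male arrays and on at most 1 of 4 female arrays of either stage. Bag3, detected on all these arrays, differed by 3.14 and had a male difference of 0.26 and a female one of -2.88.

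The male change was the more negative for Myl12b by -2.24, Actg1 by -1.68 (-1.32), Msc by -1.59 (-2.44) and Tpm1 by -1.02. Myl12b and Tpm1 were detected on all these arrays, Actg1 on 1 of 4 late male, 0 of 4 early female and 1 of 4 late female arrays, and Msc on 2 of 4 early and 0 of 4 late female arrays.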

How the results depend on the processing

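Values follow in the order of late (E17.5 to E18.5) against middle (E14.5 to E15.5) fetal males, middle against early (E12.5 to E13.5) fetal males, late males against late females, males at 8 to 10 dpp against late males, and the sex difference of changes. Log2 differences are levels as read, undetected arrays included, so against undetected groups they are no measured folds. With the settings of the report, the muscle genes called numbered 19, 15, 35, 31 and 31, the Actn2 log2 differences were -2.44, 0.11, 3.24, -0.85 and 0.58, and the Myh8 log2 differences were 3.86, 1.48, 5.16, -4.74 and 5.45. Without background correction the counts were 7, 5, 18, 17 and 16, the Actn2 differences -1.87, 0.10, 1.74, -0.68 and -0.36, and the Myh8 differences 2.50, 0.66, 3.07, -2.93 and 3.19. With normexp and an offset of 50 the counts were 11, 7, 25, 18 and 23, the Actn2 differences -2.08, 0.10, 2.21, -0.75 and -0.10, and the Myh8 differences 2.95, 0.95, 3.73, -3.51 and 3.94. With cyclic loess the counts were 17, 10, 29, 29 and 29, the Actn2 differences -2.32, 0.06, 2.996, -1.21 and 0.19, and the Myh8 differences 3.52, 1.01, 4.26, -4.97 and 4.44. With median scaling the counts were 18, 13, 29, 38 and 26, the Actn2 differences -2.54, -0.21, 2.70, 0.97 and -0.15, and the Myh8 differences 3.48, 0.98, 4.34, -3.84 and 4.48. With the authors' deposited log2 values the counts were 38, 28, 59, 50 and 45, the Actn2 differences -2.78, 0.11, 5.23, -0.90 and 2.28, and the Myh8 differences 5.18, 3.04, 7.55, -6.47 and 8.46. With no fold threshold the counts were 45, 37, 63, 57 and 54. The counts moved with those of all genes: the percentage of all genes called was 12.7, 17.6, 35.9, 30.5 and 36.9 as reported, 2.82, 6.1, 16.4, 12.4 and 16.3 without background correction, 5.22, 9.14, 22.8, 17.9 and 22.9 with offset 50, 9.62, 14.3, 29.5, 30 and 30.4 with cyclic loess, 9.61, 16.1, 30.6, 60.3 and 32 with median scaling, 26.8, 31.2, 53.3, 48.7 and 48.9 with the authors' values and 47, 50.2, 69, 66.1 and 59.5 with no fold threshold. Of 81 muscle genes the matching percentages for males after birth were 38.3, 21, 22.2, 35.8, 46.9, 61.7 and 70.4, below that of all genes with median scaling alone. The next 3 settings leave out the second comparison. Adding E16.5 to the late days gave counts of 20, 30, 29 and 34, Actn2 differences of -2.07, 3.34, -1.22 and 0.69, and Myh8 differences of 3.65, 4.75, -4.52 and 5.03. E17.5 alone as the late day gave counts of 24, 38, 32 and 34, Actn2 differences of -0.92, 4.48, -2.37 and 1.82, and Myh8 differences of 3.75, 5.08, -4.62 and 5.37. E18.5 alone gave counts of 19, 31, 27 and 33, Actn2 differences of -3.96, 2.00, 0.66 and -0.66, and Myh8 differences of 3.97, 5.24, -4.85 and 5.52. Both single days were chosen after seeing the data. Causes of the changed values were not tested, except that a setting with another fold threshold or other days differs by construction. Leaving out each array of the compared groups in turn gave counts of 19 to 21, 13 to 15, 33 to 36, 29 to 32 and 30 to 33, Actn2 differences of -2.58 to -2.30, -0.06 to 0.27, 3.12 to 3.36, -0.92 to -0.78 and 0.41 to 0.75, and Myh8 differences of 3.79 to 3.93, 1.44 to 1.53, 5.09 to 5.23, -4.81 to -4.66 and 5.37 to 5.52. The negative Actn2 value of the second range came without the second E13.5 male array.

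Same-numbered arrays did not deviate together in most pairs of groups (correlations of -0.14 to 0.35, median 0.02, with 24 of 210 pairs of groups over 0.1). The replicate numbers thus showed no pairing common to all groups. Pairing or a shared batch among some of the groups was not tested. With the replicate number as a block the counts were 19, 15, 35, 31 and 31. Every compared group holds both numbers, so the block could not change a difference of group means. The Actn2 and Myh8 differences are therefore those of the report by construction. No filter, detection on at least 4 arrays, array weights, a variance trend with a robust prior, every probe on its own, and leaving out both E16.5 female arrays (added after seeing the data) kept each count within 1.5 times. Of the nearest 10 genes, Spearman correlation shared 5 for Actn2 and 0 for Myh8, all 44 arrays as points 6 and 7, and the authors' values 7 and 7. The number of arrays limits the precision: 2 per group, with 21 residual degrees of freedom over all groups. The lowest detected level of an array was 4.79 to 6.49, and levels under it give only a bound.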
